A study of Mus musculus with 6 samples.

Results

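The genes described here encode the enzymes that build cholesterol and fatty acids and the proteins that control them. The members are 29 genes given by symbol, and each was matched to a row of a counts table of 55334 gene IDs. They fall into 18 genes of the sterol pathway, 5 genes of its regulators and of sterol transport, and 6 genes of fatty acid synthesis. RNA came from Lewis lung carcinoma cells, a mouse lung cancer line, that carried green fluorescent protein (GFP). In JAG2KO cells the guide RNA targeted Jag2, which encodes a ligand of Notch receptors, and in Scramble cells it was a scrambled guide. Both were injected into the flanks of mice, and GFP-positive, CD45-negative, DAPI-negative cells were sorted from the endpoint tumours. Each group had 3 libraries. The JAG2KO libraries are called by their column names, JagKO2, JagKO3 and JagKO4. Mouse strain and age, and whether the edited cells were a pool or 1 clone, are not stated in the labels. Nor do the labels state that the libraries came from different mice, so the p-values below cover the spread of these libraries alone, and that spread can be technical.

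Cholesterol is made from acetyl-CoA through mevalonate, isoprenoid diphosphates, squalene and lanosterol. Fatty acids are made from the same acetyl-CoA, which leaves the mitochondrion as citrate. Transcription of both pathways is driven by the sterol regulatory element-binding proteins (SREBPs), encoded by Srebf1 and Srebf2. When membrane sterol is low, Scap escorts them from the endoplasmic reticulum to the Golgi for cleavage, and when sterol is high Insig1 holds Scap back. The protein of Srebf2 mainly drives sterol genes and the main liver form of that of Srebf1 fatty acid genes, and both work at promoters together with the factor NF-Y, which binds CCAAT boxes.

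Promoter sequences are shown for the 3 members that passed the test described below, Hmgcs1, Elovl6 and Acly, and for the mevalonate kinase gene Mvk, whose level was nearly equal in both groups. Each is a RefSeq window on GRCm38.p6 from 250 bases before to 50 bases after an annotated start, written 5′ to 3′ on the strand of the gene. The windows are chr13:119690101-119690400 on the plus strand for Hmgcs1, chr3:129532136-129532435 on the plus strand for Elovl6, chr11:100527951-100528250 on the minus strand for Acly and chr5:114444019-114444318 on the plus strand for Mvk. Capitals mark matches to the CCAAT box on either strand and, in Hmgcs1, to the core letters TCACNCCAC of a sterol regulatory element.
Hmgcs1: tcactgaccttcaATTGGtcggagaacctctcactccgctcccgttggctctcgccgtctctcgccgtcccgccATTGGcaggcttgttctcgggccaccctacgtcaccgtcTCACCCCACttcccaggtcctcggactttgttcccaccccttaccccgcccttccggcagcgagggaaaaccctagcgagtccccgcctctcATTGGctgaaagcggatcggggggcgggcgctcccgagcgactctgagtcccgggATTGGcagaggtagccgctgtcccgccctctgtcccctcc
Elovl6: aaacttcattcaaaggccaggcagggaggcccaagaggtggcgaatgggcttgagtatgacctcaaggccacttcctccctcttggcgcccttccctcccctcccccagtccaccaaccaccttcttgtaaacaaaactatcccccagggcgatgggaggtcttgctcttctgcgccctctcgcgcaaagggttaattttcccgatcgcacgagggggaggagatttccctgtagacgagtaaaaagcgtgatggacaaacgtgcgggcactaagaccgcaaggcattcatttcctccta
Acly: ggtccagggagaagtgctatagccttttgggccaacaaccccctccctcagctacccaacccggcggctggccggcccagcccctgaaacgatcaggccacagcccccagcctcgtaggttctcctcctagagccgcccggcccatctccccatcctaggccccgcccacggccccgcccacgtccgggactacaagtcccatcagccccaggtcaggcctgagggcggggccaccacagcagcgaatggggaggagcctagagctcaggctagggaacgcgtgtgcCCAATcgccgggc
Mvk: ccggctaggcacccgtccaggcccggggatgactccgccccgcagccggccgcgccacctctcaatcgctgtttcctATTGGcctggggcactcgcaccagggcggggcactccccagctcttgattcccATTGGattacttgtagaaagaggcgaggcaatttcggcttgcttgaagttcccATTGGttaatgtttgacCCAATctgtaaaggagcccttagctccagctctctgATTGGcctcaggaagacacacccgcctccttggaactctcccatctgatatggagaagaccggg

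The Hmgcs1 window held 1 sterol element core, TCACCCCAC, beginning 137 bases before the start, and 4 CCAAT boxes. The Mvk window held 5 CCAAT boxes and no core, the Acly window 1 CCAAT box after the start, and the Elovl6 window neither motif. RefSeq windows were found for 23 of the 29 members. Fdps, Fdft1, Sqle, Stard4, Scd1 and Scd2 had no entry. A CCAAT box on either strand stood in 19 of the 23, and in 14 of the 15 sterol pathway genes with a window. Over all 27025 genes with a window the share was 41.1%. The sterol core was in 1 member, against 1.44% of all genes. Matches to both strands were counted even where they overlapped each other, as they do in Fasn. A missing match says only that those letters are not in that window.

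**Figure D1:**
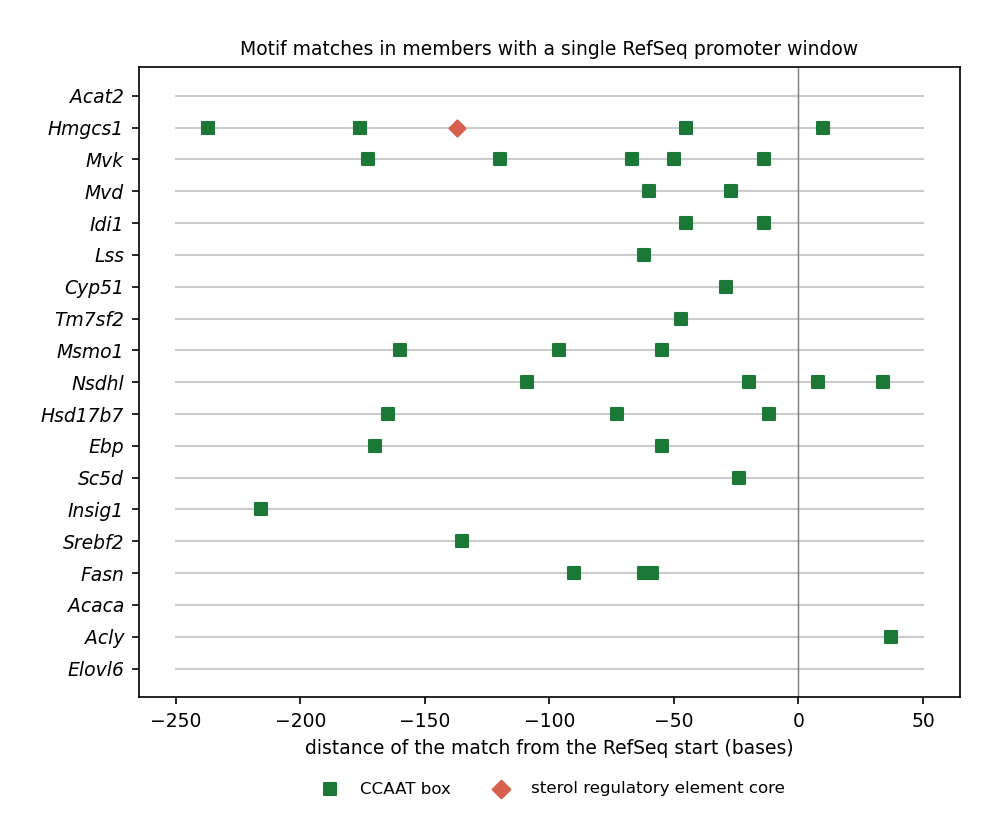
Positions of motif matches in the promoter windows of the members that have a single RefSeq window. The x axis gives the distance in bases from the annotated start, green squares are CCAAT boxes and the red diamond is the sterol element core. Hmgcs1 alone holds the diamond, at -137, and the rows of Acat2, Acaca and Elovl6 are empty.

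The libraries held 37036772 to 42914376 counts in JAG2KO and 39448304 to 43923565 in Scramble. Jag2 itself measured 0.514, 0.799 and 1.11 CPM (counts scaled to library size with TMM factors) in JagKO2, JagKO3 and JagKO4, against 1.52, 1.1 and 1.02 CPM in Scramble replicates 1, 2 and 3. The groups overlapped, and its log2 fold change was -0.58 (edgeR's adjusted p = 0.318, SE 0.39). The labels do not say where in Jag2 the guide cuts, so its RNA level is no check of the labels. Among lung epithelial markers, Nkx2-1 and Sftpb had 0 counts in every library, and Sftpc and Scgb1a1 had counts in 1 library each. In these libraries 3 counts were worth 0.068 to 0.0811 CPM. The 7 lung and simple epithelial markers summed to 283 to 337 CPM in JAG2KO and 388 to 398 CPM in Scramble. Nearly all of that was a pair of keratin genes that moved unequally. Krt8 measured 4.51, 3.17 and 4.71 CPM in JagKO2, JagKO3 and JagKO4, against 128, 119 and 125 CPM in Scramble replicates 1, 2 and 3, and fell by 4.90 in log2 units (edgeR's adjusted p = 1.72e-10, SE 0.12). Krt18 measured 279.5 to 332 CPM in JAG2KO and 259 to 273 CPM in Scramble and did not pass (edgeR adjusted p = 0.0637). Adipocyte markers, the other cells in flank tissue known for fat synthesis, summed to 7.41 to 9.74 CPM over 8 genes in JAG2KO and 5.47 to 11.2 CPM in Scramble, and 0 of 7 tested passed. Skin and sebaceous markers summed to 2.37 to 8.6 CPM in JAG2KO and 2.09 to 3.33 CPM in Scramble. Over all tested genes 11.8% passed as higher in JAG2KO and 12.5% as lower. Macrophage markers summed to 44.3 to 53 CPM in JAG2KO and 29.5 to 34.5 CPM in Scramble, with 3 of 10 genes higher. Endothelial markers summed to 36.6 to 53.4 CPM in JAG2KO and 20.95 to 24.9 CPM in Scramble, with 5 of 8 higher. Fibroblast and pericyte markers summed to 811 to 1236 CPM in JAG2KO and 713 to 851.5 CPM in Scramble, with 2 of 7 higher and 1 lower. Skeletal muscle markers summed to 4.68 to 93.4 CPM in JAG2KO and 3.05 to 30.7 CPM in Scramble. Red cell genes summed to 11.5 to 30.2 CPM in JAG2KO and 49.6 to 58.5 CPM in Scramble, with 4 of 4 lower. T and NK cell markers stayed at or under 2.77 CPM in sum in JAG2KO and 1.29 CPM in Scramble, and neutrophil markers at or under 1.66 CPM in JAG2KO and 3.05 CPM in Scramble. In RNA from sorted bulk cells, fewer cells of a kind and less RNA per cell cannot be told apart.

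Cholesterol and fatty acid synthesis genes differed little between the groups. All 29 members passed the low-count filter. Of them 2 were called higher in JAG2KO, the sterol gene Hmgcs1 and the elongase gene Elovl6, and 1 lower, the citrate lyase gene Acly, while 26 did not pass (edgeR quasi-likelihood test, adjusted p under 0.05 over 16049 genes). Over all tested genes 24.3% were called, 11.8% higher and 12.5% lower. Fitted log2 fold changes of the members ran from -0.31 to 0.46, with a median of 0.08, and those of all tested genes had a median of 0.00. The median size of change, whatever its sign, was 0.14 on the log2 scale for the members and 0.24 for all tested genes. All tested genes include genes with few counts, and these sets were not matched for level. CPM values of the groups did not overlap for 6 of the 29 members, against 40.3% of all tested genes. Those 6 were Hmgcs1, Ebp, Srebf2, Acaca, Acly and Elovl6.

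**Figure D2:**
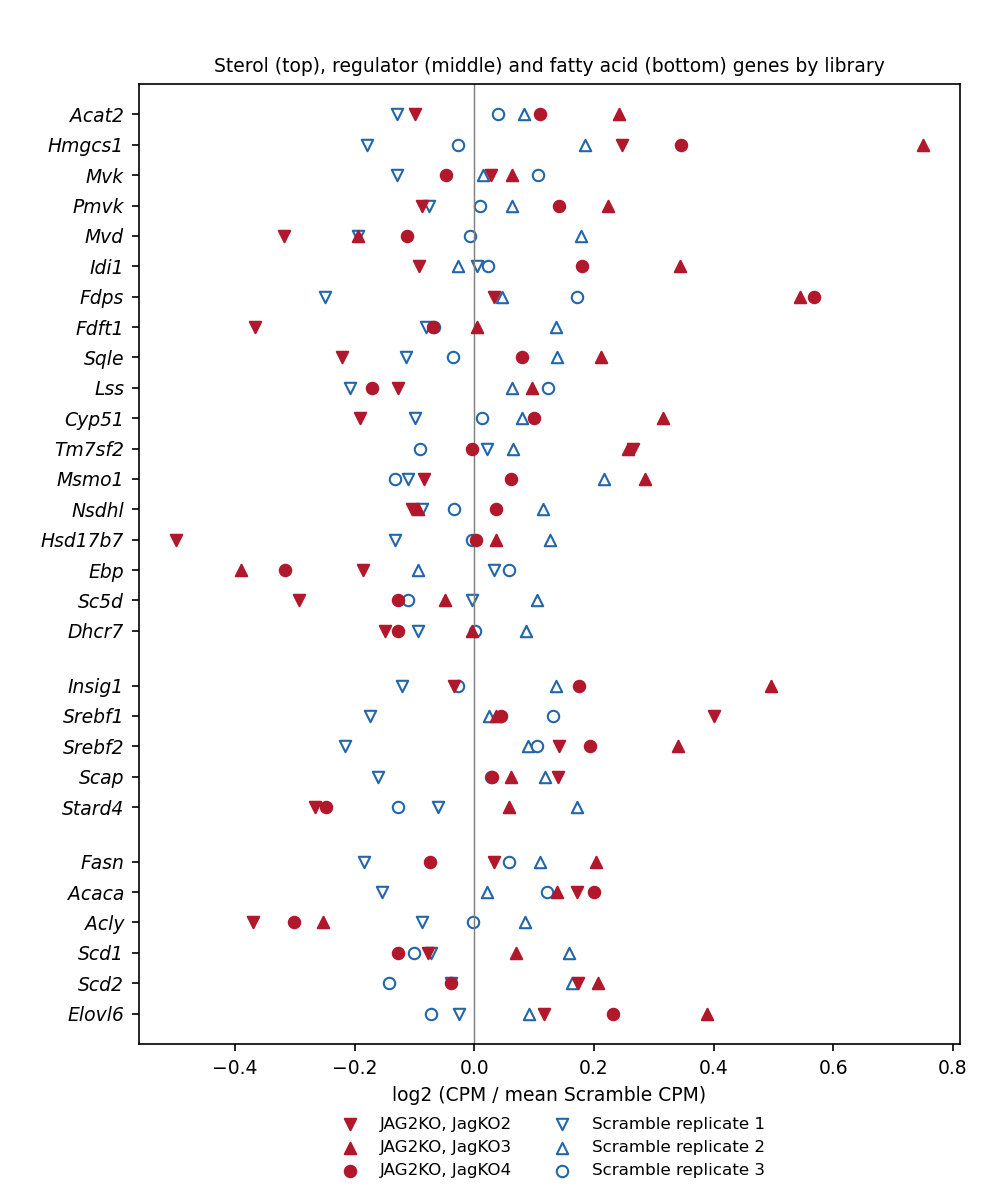
Level of each member in each library, as log2 of its CPM over the Scramble mean (x axis), with sterol pathway genes above, regulators in the middle and fatty acid genes below. Filled red symbols are JAG2KO libraries and open blue symbols Scramble libraries. The red symbols lie wholly right of the blue for Hmgcs1, Srebf2, Acaca and Elovl6 and wholly left for Acly and Ebp, and JagKO2 (red triangle pointing down) is the leftmost symbol in 12 of 29 rows.

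In the first part of the sterol pathway, from acetyl-CoA to isoprenoid diphosphates, 1 of 7 genes passed. Hmgcs1, which makes the precursor of mevalonate, lies on chromosome 13 (GRCm38, 119690379 to 119708260, plus strand). It measured 241 CPM in JagKO2, 342 CPM in JagKO3 and 258 CPM in JagKO4, against 179.5, 231 and 199 CPM in Scramble replicates 1, 2 and 3. Every JAG2KO library was above every Scramble library, with JagKO3 well above the others. Hmgcs1 rose by 0.46 in log2 units (edgeR's adjusted p = 0.0166, SE 0.12), a fold change of 1.38. Its call was lost without JagKO3, Scramble replicate 1 or Scramble replicate 3 (edgeR adjusted p = 0.0511 to 0.0773; 2.42e-09 to 0.0773 over 13 alternatives), and its log2 fold change was then 0.30 without JagKO3, 0.39 without Scramble replicate 1 and 0.45 without Scramble replicate 3. Of the 12 tested genes nearest to it, 3 were called higher and 1 lower, and their median was 0.40 in log2 units. An opposite-strand gene model, Gm48342, shares 557 of its 4594 exon bases. The part of neighbouring genes and of antisense reads was not tested.

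The other genes of this stretch did not pass. Acat2, the thiolase gene of the first step, averaged 54.9 ± 6.46 CPM in JAG2KO and 51.6 ± 3.94 CPM in Scramble (SD, n = 3 each). Mvk averaged 24.6 ± 0.954 CPM in JAG2KO and 24.3 ± 1.99 CPM in Scramble, a log2 fold change of 0.015 (SE 0.093). The phosphomevalonate kinase gene Pmvk averaged 35.1 ± 3.82 CPM in JAG2KO and 32.8 ± 1.58 CPM in Scramble. These values lay within the spread of the libraries. The decarboxylase gene Mvd averaged 33.2 ± 2.37 CPM in JAG2KO and 38.3 ± 4.95 CPM in Scramble (log2 fold change -0.205, SE 0.10). The isomerase gene Idi1 measured 31.4, 42.5 and 38 CPM in JagKO2, JagKO3 and JagKO4, against 33.6, 32.9 and 34 CPM in Scramble replicates 1, 2 and 3. JagKO2 was the lowest and JagKO3 the highest of the 6. The farnesyl diphosphate synthase gene Fdps had only 5.43, 7.75 and 7.87 CPM in JagKO2, JagKO3 and JagKO4, against 4.46, 5.48 and 5.98 CPM in Scramble replicates 1, 2 and 3. Its log2 fold change was 0.40 (edgeR's adjusted p = 0.153, SE 0.19). Fdps shares 1124 of 4208 exon bases with the same-strand gene Gm43738, and reads over both may not have been counted for it, so its level is uncertain.

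From squalene to lanosterol, values were close to equal. Squalene synthase (Fdft1) averaged 62.2 ± 8.15 CPM in JAG2KO and 68.3 ± 5.89 CPM in Scramble, and 774 of its 4227 exon bases overlap the opposite-strand gene Ctsb. Squalene epoxidase (Sqle), a rate-limiting oxygen-dependent step, measured 114, 154 and 141 CPM in JagKO2, JagKO3 and JagKO4, against 123, 147 and 130 CPM in Scramble replicates 1, 2 and 3. The lowest and the highest value were both JAG2KO libraries, and the log2 fold change was 0.03 (SE 0.10). Lanosterol synthase (Lss) averaged 64.1 ± 6.54 CPM in JAG2KO and 66.9 ± 7.89 CPM in Scramble.

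None of the 8 genes from lanosterol to cholesterol passed, counting Cyp51 as the first. The demethylase gene Cyp51 averaged 104 ± 18.1 CPM in JAG2KO and 98 ± 6.09 CPM in Scramble, and the methylsterol oxidase gene Msmo1 85 ± 11.1 CPM in JAG2KO and 79.6 ± 11.2 CPM in Scramble. Ebp, the sterol isomerase gene, measured 10.4, 9 and 9.47 CPM in JagKO2, JagKO3 and JagKO4, against 12.1, 11 and 12.3 CPM in Scramble replicates 1, 2 and 3. Its groups did not overlap, but its log2 fold change of -0.295 (SE 0.125) had an edgeR adjusted p = 0.109. The desaturase gene Sc5d averaged 97.8 ± 8.35 CPM in JAG2KO and 109 ± 8.13 CPM in Scramble (log2 fold change -0.15, SE 0.08). Hsd17b7, a ketosteroid reductase gene, measured 27.4, 39.7 and 38.8 CPM in JagKO2, JagKO3 and JagKO4, against 35.3, 42.3 and 38.6 CPM in Scramble replicates 1, 2 and 3. JagKO2 stood below the 5 others. The dehydrogenase gene Nsdhl, the reductase gene Dhcr7 of the last step and the reductase gene Tm7sf2 had log2 fold changes of -0.05, -0.09 and 0.18. Tm7sf2 shares 532 of 4403 exon bases with the same-strand gene Vps51.

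The regulators did not pass the test with all 6 libraries. Srebf2, which encodes the main SREBP of sterol genes, measured 319, 366 and 331 CPM in JagKO2, JagKO3 and JagKO4, against 249, 308 and 311 CPM in Scramble replicates 1, 2 and 3. The groups did not overlap, with Scramble replicate 1 the lowest, and its log2 fold change was 0.23 (edgeR's adjusted p = 0.0842, SE 0.09). DESeq2, a fit with no low-count filter and the fit without JagKO2 called it higher (adjusted p = 0.00893 to 0.306 over 13 alternatives). With trends on GC content and length removed the log2 fold change of Srebf2 was 0.137. Srebf1 measured 158, 123 and 124 CPM in JagKO2, JagKO3 and JagKO4, against 106, 122 and 131 CPM in Scramble replicates 1, 2 and 3. JagKO2 was the highest library for Srebf1, while it was the lowest JAG2KO library for Srebf2. Insig1, a target of SREBPs as well as their restraint, measured 112, 162 and 130 CPM in JagKO2, JagKO3 and JagKO4, against 106, 126 and 113 CPM in Scramble replicates 1, 2 and 3. The groups overlapped (log2 fold change 0.23, SE 0.115, edgeR adjusted p = 0.173). Scap averaged 150.2 ± 5.91 CPM in JAG2KO and 142 ± 13.8 CPM in Scramble. The sterol carrier gene Stard4 averaged 56.2 ± 7.31 CPM in JAG2KO and 62.1 ± 6.94 CPM in Scramble. Opposite-strand genes overlap exon bases of Srebf1 (Rai1) and Scap (5830462I19Rik).

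Of the fatty acid genes 1 rose, 1 fell and 4 did not pass. Acly, which splits citrate into the acetyl-CoA that feeds both pathways, lies on chromosome 11 (100476353 to 100528000, minus strand). It measured 217.5, 236 and 228 CPM in JagKO2, JagKO3 and JagKO4, against 264, 298 and 281 CPM in Scramble replicates 1, 2 and 3. Every JAG2KO library was below every Scramble library. Acly fell by 0.31 in log2 units (edgeR's adjusted p = 0.00523, SE 0.07), and it stayed called in all 13 alternatives (adjusted p = 0.000318 to 0.0381). Of its 14 nearest tested genes 5 were called lower and 0 higher, and their median was -0.03 in log2 units.

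Elovl6, which lengthens the product of fatty acid synthase, lies on chromosome 3 (129532355 to 129638495, plus strand). It measured 145, 175 and 157 CPM in JagKO2, JagKO3 and JagKO4, against 131, 142 and 127 CPM in Scramble replicates 1, 2 and 3. The groups did not overlap, though JagKO2 and Scramble replicate 2 were close. Elovl6 rose by 0.25 in log2 units (edgeR's adjusted p = 0.0355, SE 0.08). The call was lost without JagKO3, JagKO4, Scramble replicate 1 or Scramble replicate 3, and with trends on GC content and length removed (edgeR adjusted p = 0.0835 to 0.14; 0.00426 to 0.14 over 13 alternatives). Its log2 fold change was then 0.26 without JagKO4 and 0.249 without Scramble replicate 1, close to the value from all libraries. It was smaller without JagKO3 (0.18), without Scramble replicate 3 (0.21) and with the GC and length trends removed (0.17). On chromosome 3, 24.2% of the 830 tested genes were called higher and 4.94% lower, and the median over them was 0.18 in log2 units. The part of that shift in the value of Elovl6 was not tested.

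The other fatty acid genes were abundant and did not pass. Fasn, the fatty acid synthase gene, measured 538, 605 and 499 CPM in JagKO2, JagKO3 and JagKO4, against 462, 567 and 547 CPM in Scramble replicates 1, 2 and 3. The ranges overlapped almost wholly (log2 fold change 0.06, SE 0.09). Acaca, whose product makes malonyl-CoA for Fasn, measured 104, 102 and 107 CPM in JagKO2, JagKO3 and JagKO4, against 83.2, 94.05 and 101 CPM in Scramble replicates 1, 2 and 3. The groups lay apart by a small margin (log2 fold change 0.17, SE 0.07, edgeR adjusted p = 0.122). With GC and length trends removed the log2 fold change was -0.014 for Acaca and -0.161 for Fasn. The desaturase gene Scd1 averaged 179 ± 13 CPM in JAG2KO and 185 ± 18.7 CPM in Scramble, and its neighbour Scd2 612 ± 55 CPM in JAG2KO and 564 ± 61.8 CPM in Scramble. Scd1 and Scd2 are near copies, and the counting of reads that match both is not stated.

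Per kilobase of exon, Scd2 had the highest level of the members, at 112 CPM per kilobase in JAG2KO and 103 in Scramble. In JAG2KO it was followed by Hmgcs1 (61.1), Fasn (50), Srebf2 (47.1), Insig1 (43.5) and Acly (43). In Scramble the order after Scd2 was Acly (53.2), Fasn (48), Hmgcs1 (44.2), Srebf2 (40.3) and Scd1 (37.7). Fdps was the lowest in both, at 1.67 CPM per kilobase in JAG2KO and 1.26 in Scramble. Its place is uncertain, since reads over its overlap with Gm43738 may not have been counted while its full exon length was used. Neighbours in these orders were not tested against each other.

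Summed levels gave the same small differences. The sterol pathway genes summed to 984, 1275 and 1113 CPM in JagKO2, JagKO3 and JagKO4, against 973, 1146 and 1038 CPM in Scramble replicates 1, 2 and 3. The ratio of group means was 1.07, and JagKO2 and JagKO3 lay farther apart than the 2 group means. These means were 1124 CPM in JAG2KO and 1052 CPM in Scramble. Hmgcs1 alone averaged 280.5 CPM in JAG2KO and 203 CPM in Scramble, a larger difference than that of the sterol sums. The regulators summed to 815 ± 43.8 CPM in JAG2KO and 728 ± 71 CPM in Scramble, a ratio of 1.12. The fatty acid genes summed to 1829 ± 128 CPM in JAG2KO and 1781 ± 142 CPM in Scramble, a ratio of 1.03. Without JagKO3 the ratio was 0.996 for the sterol pathway and 0.989 for the fatty acid genes. Median log2 fold changes were 0.03 for the sterol pathway, 0.17 for the regulators and 0.09 for the fatty acid genes. The median of the regulators was 0.047 without JagKO2, which held the highest Srebf1 and Scap values.

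**Figure D3:**
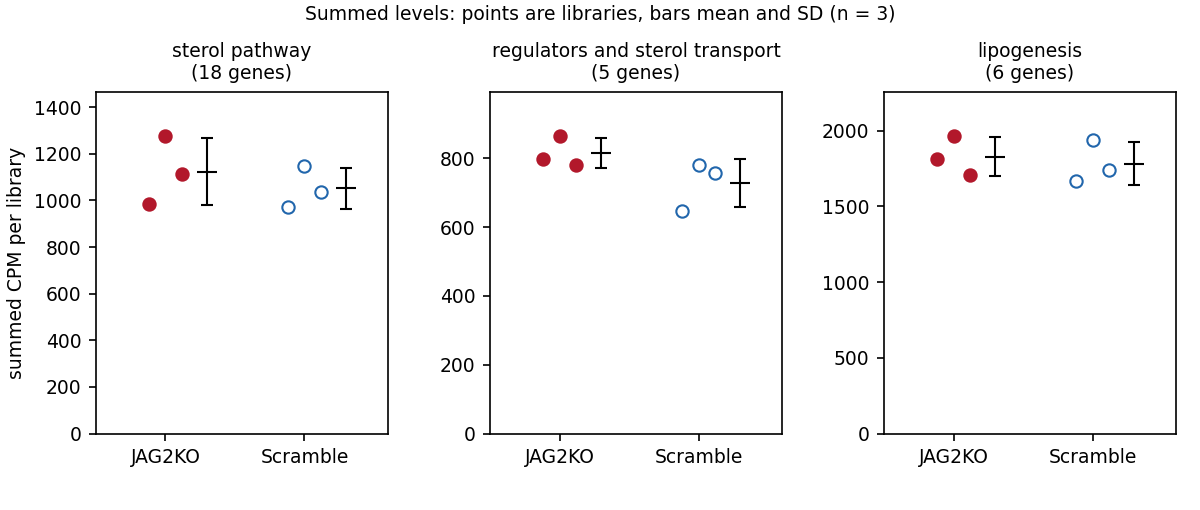
Summed CPM of the 18 sterol pathway genes, the 5 regulators and the 6 fatty acid genes in each library, with JAG2KO left of Scramble. Points are libraries and bars the mean and SD (n = 3), and all axes start at 0. The groups overlap for the sterol and fatty acid sums, and for the regulators the lowest JAG2KO library, at 782, stands just above the highest Scramble library, at 780.5.

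The libraries of a group varied together across the sterol genes. JagKO2 was the lowest JAG2KO library for 14 of the 18 sterol pathway genes, where over all tested genes it was the lowest for 35.9%. JagKO3 was the highest JAG2KO library for 13 of the 18, against 32.6% of all tested genes. In Scramble, replicate 1 was the lowest for 13 of 18, against 33.7% of all tested genes, and replicate 2 the highest for 13 of 18, against 32%. JagKO3 and Scramble replicate 2 were also each the highest of their group for 5 of the 6 fatty acid genes. Scramble replicate 1 was the lowest of its group for 3 of those 6, and JagKO2 for 2. Genes of 1 library share its depth and handling, so these counts describe the libraries and carry no test. The log2 ratio of JagKO2 to the mean of JagKO3 and JagKO4 was -0.52 for Hsd17b7, -0.40 for Cyp51, -0.38 for Insig1 and -0.37 for Sqle. It was 0.36 for Srebf1, 0.13 for Tm7sf2 and 0.17 for Ebp. Fibroblast and pericyte markers summed to 1236 CPM in JagKO2, 865 CPM in JagKO3 and 811 CPM in JagKO4. Most of the sum was Dcn (577, 395 and 360 CPM) and Lum (456, 323 and 281 CPM). Neither Dcn nor Lum passed between JAG2KO and Scramble. The part of fibroblast and pericyte RNA in the spread of the sterol genes was not tested.

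Without JagKO2 more members were called. JagKO2 was the lowest JAG2KO library for 19 of 29 members, so leaving it out raises their fold changes in itself. The calls below are therefore a description. With JagKO3 and JagKO4 against 3 Scramble libraries, 6 of 29 members were called higher, against 11.5% of all genes tested there, and 1 lower. Idi1, Fdps, Insig1 and Srebf2 joined Hmgcs1 and Elovl6, and Acly was again the gene called lower. Insig1 then had a log2 fold change of 0.345 (edgeR's adjusted p = 0.0149, SE 0.09) and Srebf2 of 0.27 (edgeR's adjusted p = 0.0355, SE 0.09). Idi1 had 0.265 (edgeR's adjusted p = 0.036, SE 0.09) and Fdps 0.56 (edgeR's adjusted p = 0.0366, SE 0.18). In this smaller set 3 of 18 sterol pathway genes, 2 of 5 regulators and 1 of 6 fatty acid genes were called higher. Without JagKO3, the highest JAG2KO library for 21 of 29 members, 0 members were called higher and Acly alone lower. Of all genes tested without JagKO3, 20.6% were called in either direction, against 24.3% with all libraries.

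**Figure D4:**
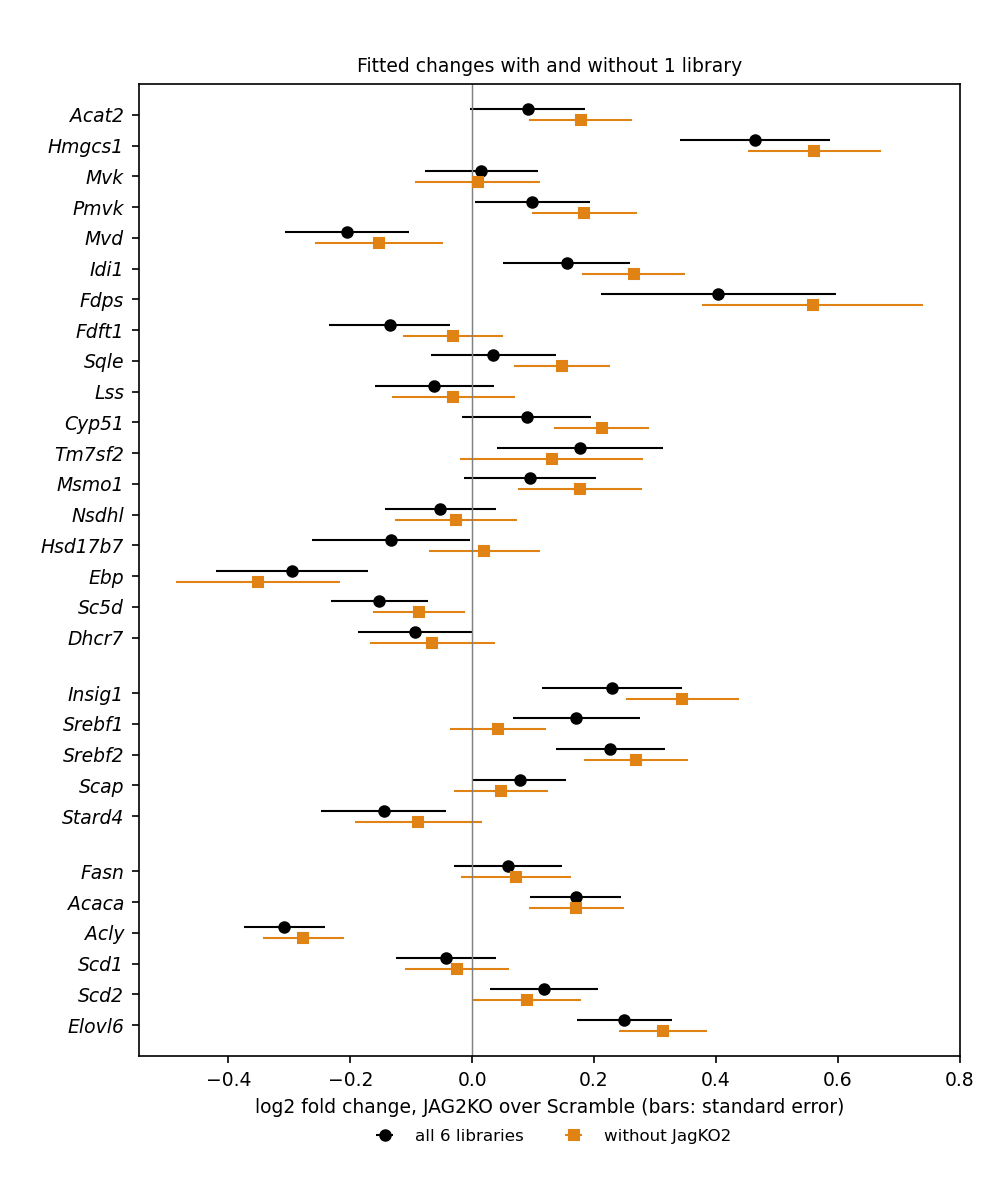
Fitted log2 fold change of each member, JAG2KO over Scramble (x axis), with all 6 libraries (black circles) and without JagKO2 (orange squares); bars are standard errors. Most sterol genes move to the right without JagKO2, and Srebf1 moves left, to 0.04 from the 0.17 of all libraries, while Acly keeps its place left of 0.

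Further lipid genes, which handle sterols and fatty acids around these pathways, included called genes with larger fold changes than any member. Over all tested genes 11.8% were called higher and 12.5% lower. With 1 library left out, 16.3% to 24% of all tested genes were called in either direction. Of 17 other sterol and SREBP genes 0 were higher and 5 lower, with 3 to 5 lower when 1 library at a time was left out (3 without JagKO4 or Scramble replicate 2). Soat1, which esterifies cholesterol for storage, measured 124, 145 and 128 CPM in JagKO2, JagKO3 and JagKO4, against 199.5, 190 and 178 CPM in Scramble replicates 1, 2 and 3, and fell by 0.51 in log2 units (edgeR's adjusted p = 0.000392, SE 0.07). The endoplasmic reticulum membrane gene Erlin1 and the sterol reductase and lamin receptor gene Lbr fell by 0.46 (edgeR adjusted p = 0.000416) and by 0.31 (adjusted p = 0.0046) in log2 units. Of 20 tested genes of further fatty acid and glycerolipid synthesis 2 were higher and 3 lower, with 1 to 2 higher and 1 to 5 lower when 1 library was left out. Only 1 was higher without JagKO3, JagKO4, Scramble replicate 1 or Scramble replicate 3. Without JagKO3 5 were lower, and without JagKO4 or Scramble replicate 2 only 1. Acsl4, which activates polyunsaturated fatty acids, measured 41.4, 49.4 and 43.5 CPM in JagKO2, JagKO3 and JagKO4, against 82.9, 76.9 and 73.9 CPM in Scramble replicates 1, 2 and 3. It fell by 0.80 in log2 units (edgeR's adjusted p = 3.16e-05, SE 0.08). Dgat1, the enzyme of the last step of triglyceride synthesis, rose by 0.69 in log2 units (edgeR's adjusted p = 0.000504, SE 0.10). The desaturase gene Fads1 fell by 0.24 in log2 units (edgeR adjusted p = 0.0157), a call lost without JagKO4 or Scramble replicate 2 (adjusted p = 0.0701 to 0.0833; 0.00992 to 0.0833 over 13 alternatives). On chromosome 19, which holds Erlin1 and Fads1, 23.3% of tested genes were called lower and 6.58% higher.

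Liver X receptors (LXRs) sense oxysterols. Of 9 genes of LXRs, their partners and their targets 2 were higher and 2 lower, against 11.8% and 12.5% of all tested genes. Only 1 was lower without JagKO3, Scramble replicate 1 or Scramble replicate 2. Abcg1, a cholesterol exporter, measured 8.65, 5.48 and 6.53 CPM in JagKO2, JagKO3 and JagKO4, against 1.34, 0.987 and 0.509 CPM in Scramble replicates 1, 2 and 3. It rose by 2.85 in log2 units (edgeR's adjusted p = 5.52e-05, SE 0.32). Mylip, whose product degrades lipoprotein receptors, rose by 0.65 in log2 units (edgeR's adjusted p = 0.00753, SE 0.15). The LXR gene Nr1h3 fell by 1.18 in log2 units (edgeR's adjusted p = 0.00261, SE 0.23), and measured 1.49 to 1.7 CPM in JAG2KO and 3.49 to 3.82 CPM in Scramble. The other LXR gene, Nr1h2, was far more abundant, at a mean of 97.5 CPM in JAG2KO and 87.45 CPM in Scramble. It did not pass (log2 fold change 0.156, edgeR adjusted p = 0.192). Macrophage and endothelial markers, also higher in JAG2KO as given above, belong to cells that use Abcg1. The sort was for GFP-positive, CD45-negative cells. Ptprc, which encodes CD45, averaged 2.92 CPM in JAG2KO and 2.15 CPM in Scramble and did not pass. The part of macrophage and endothelial RNA in the rise of Abcg1 was not tested.

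Of 14 tested genes of fatty acid oxidation and of targets of the fatty acid sensors called PPARs, 6 were higher and 5 lower. Over all tested genes the shares were 11.8% higher and 12.5% lower. Without any 1 of the 6 libraries 1 to 3 of the 14 were higher, the fewest without Scramble replicate 1. The number lower was then 3 to 4, lowest without JagKO4, Scramble replicate 1 or Scramble replicate 2. Plin2, which coats lipid droplets, measured 117, 133 and 119 CPM in JagKO2, JagKO3 and JagKO4, against 197, 202 and 195 CPM in Scramble replicates 1, 2 and 3. It fell by 0.69 in log2 units (edgeR's adjusted p = 1.71e-05, SE 0.07). Angptl4, an inhibitor of lipoprotein lipase, fell by 0.66 in log2 units (edgeR's adjusted p = 0.000952, SE 0.11). Pdk4, which limits entry of pyruvate into the citrate cycle, measured 2.43, 1.54 and 3.3 CPM in JagKO2, JagKO3 and JagKO4, against 0.295, 0.551 and 0.254 CPM in Scramble replicates 1, 2 and 3. It rose by 2.71 in log2 units (edgeR's adjusted p = 0.000669, SE 0.42). Pdk4 is also abundant in muscle, whose markers summed to 52.1, 4.68 and 93.4 CPM in JagKO2, JagKO3 and JagKO4 and to 30.7, 8.14 and 3.05 CPM in Scramble replicates 1, 2 and 3. The part of muscle RNA in the value of Pdk4 was not tested.

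**Figure D5:**
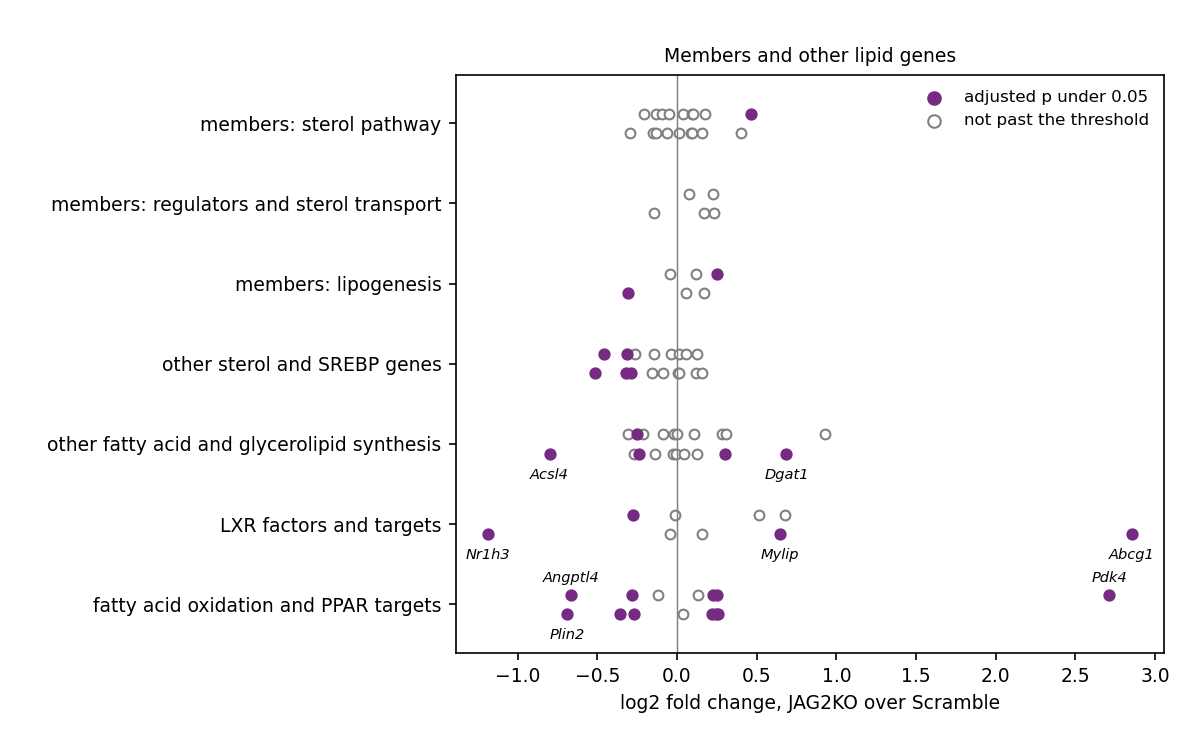
Log2 fold change, JAG2KO over Scramble (x axis), of each tested gene of the members' 3 groups and of 4 further lipid lists (rows); points are staggered within a row only for legibility. Filled points passed an edgeR adjusted p of 0.05. Members stay between -0.31 and 0.46, while the other rows reach from -1.18 for Nr1h3 to 2.85 for Abcg1.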

How the data were processed

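The 6 mouse polyA RNA-seq libraries were 3 JAG2KO and 3 Scramble. Raw counts per gene, in whole numbers, were deposited as 1 table. Per the submitters' processing notes, STAR 2.7.7a and HTSeq 0.11.2 were used, in settings not recorded there. The sources used here do not give the genome build, annotation, strand setting or handling of reads shared between genes. Scramble columns carry the titles' numbers. JAG2KO columns run from 2 to 4 and titles from 1 to 3, so those columns were tied to the group only. Symbols were found for 55154 of 55334 IDs. Coordinates and exon lengths come from GENCODE M21 (GRCm38), promoters from RefSeq.

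Counts were tested with edgeR 4.0.16 in R 4.3.3: filterByExpr (minimum count 10, total 15), TMM factors, quasi-likelihood F test, two-sided, Benjamini-Hochberg adjustment over all tested genes, called under 0.05. A standard error is the fold change's size over the square root of F. Tried in turn were RLE factors, totals with no scaling factor, no filter, CPM 1 in 3 libraries, DESeq2 1.42.0, limma-voom (limma 3.58.1), each library left out, and removal of GC and length trends (splines, 5 degrees of freedom). The fits were tested on simulated data. The chi-square between same-group libraries was 12.2 to 31 for each degree of freedom, so no library was taken as a repeat of another. Pairs with JagKO2 gave 25.4 and 31, and the other pairs 12.2 to 15. Members and lists were chosen with earlier results of these data known. All members are named, and from each further list the 3 called genes with the smallest p, with the LXR gene Nr1h2 beside Nr1h3.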

Additional observations from a re-analysis of the deposited data

How the results depend on the processing

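The number of members called higher was 2 with all libraries, 4 with no low-count filter (Insig1 and Srebf2 added) and 1 with GC and length trends removed (Elovl6 lost). Leaving out 1 library at a time gave 0 to 6: 0 without JagKO3, Scramble replicate 1 or Scramble replicate 3, 1 without JagKO4, 2 without Scramble replicate 2 and 6 without JagKO2. The number called lower was 1 in every setting run, and the gene was Acly each time. Of all tested genes 24.3% were called in either direction with all libraries. The share was 16.3% to 18% without JagKO4 or a Scramble replicate, 20.6% without JagKO3 and 24% without JagKO2. It was 15.1% with no low-count filter and 24.5% with GC and length trends removed. Left-out libraries moved the median log2 fold change of the regulators between 0.047 and 0.23. Small differences turned direction with left-out libraries. The sterol median of 0.025 was -0.034 without JagKO3 and -0.022 without Scramble replicate 1, and the sterol ratio of 1.07 was 0.996 without JagKO3. The fatty acid ratio of 1.03 was 0.989 without JagKO3 and 0.994 without Scramble replicate 1. The fatty acid median stayed positive with left-out libraries, at 0.026 to 0.157. No median was computed with GC and length trends removed. In that fit the fatty acid genes had log2 fold changes of -0.161 (Fasn), -0.014 (Acaca), -0.343 (Acly), -0.092 (Scd1), 0.034 (Scd2) and 0.174 (Elovl6). Of the refitted values of members, 362 kept their side of the threshold, 8 lost a call, 7 gained one and 0 called values turned sign. Uncalled members changed sign in some alternatives, at most 5 of them at once (without JagKO3). The cause of the changed calls was not tested. No paired analysis was possible because the JAG2KO columns do not carry the numbers of the sample titles. Member counts were 197 or more in each library, and 3 libraries per group limit the precision.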

Other observations

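Pairs of members within a library, chosen after their values were seen, were compared as ratios of CPM with no test. Hmgcs1 over Sqle was 2.11, 2.22 and 1.83 in JagKO2, JagKO3 and JagKO4, against 1.46, 1.57 and 1.53 in Scramble replicates 1, 2 and 3. The ratio was above the Scramble range in JagKO2 too, the library with low sterol gene levels. Acly over Acaca was 2.08, 2.31 and 2.14 in JagKO2, JagKO3 and JagKO4, against 3.17, 3.17 and 2.78 in Scramble replicates 1, 2 and 3. Scd2 over Scd1 was 3.64, 3.36 and 3.25 in JagKO2, JagKO3 and JagKO4, against 3.13, 3.07 and 2.97 in Scramble replicates 1, 2 and 3. Srebf2 over Srebf1 was 2.02, 2.98 and 2.68 in JagKO2, JagKO3 and JagKO4, against 2.34, 2.53 and 2.37 in Scramble replicates 1, 2 and 3, so the Scramble values lay inside the JAG2KO range.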
